A study of Mus musculus with 6 samples.

Results

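The mitochondrial ribosome translates the few proteins that mitochondrial DNA encodes, all of them subunits of the oxidative phosphorylation complexes. Its RNA comes from the mitochondrial genome, whereas its proteins are encoded in the nucleus, made in the cytosol and imported. The large subunit forms peptide bonds and the small subunit reads the mRNA, and each combines proteins that have bacterial homologues with proteins that do not. The genes described here are the protein-coding genes whose symbol begins with Mrpl (large subunit) or Mrps (small subunit) followed by a digit, in the GENCODE vM21 annotation of the mouse genome. This rule found 78 genes among the 49584 rows of the table, 49 Mrpl genes and 29 Mrps genes.

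Their transcripts were measured in spermatocytes of the leptotene and zygotene stages, when germ cells enter the first meiotic prophase. The cells were sorted by FACS from testes of mice at postnatal day 12. Of the 6 libraries, 3 were labelled Srp68 SKO and 3 Wild type; the count table heads the mutant columns CKO. SRP68, the product of Srp68, is part of the signal recognition particle, which docks ribosomes making secretory or membrane proteins at the endoplasmic reticulum. Poly(A) RNA was copied and amplified by Smart-seq2, a full-length cDNA method without molecular identifiers. The sources used here do not give the deleted part of Srp68, the promoter that drives any recombinase or the further alleles of either genotype. Whether separate animals gave the libraries of a genotype is not in the labels. The p-values therefore rest on library-to-library spread alone, which may be technical.

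The SKO libraries held 11.9 to 12.7 M counts and the Wild type libraries 14.3 to 15.4 M. Of the 78 genes, 77 had counts in every library. Mrpl53 had 0 counts in all 6 libraries, which allows levels of up to 0.289 CPM in SKO libraries and up to 0.196 CPM in Wild type libraries (3 counts per library, counting error only), and 88.0% of its exon length overlaps other genes. Levels are counts scaled to library size (CPM) with trimmed mean of M-values (TMM) factors, and means are given ± SD over the 3 libraries of a genotype. A gene was called higher or lower when edgeR's quasi-likelihood test gave a Benjamini-Hochberg adjusted p under 0.05 over the 13474 genes tested. Srp68 itself had 12.1, 6.52 and 6.93 CPM in SKO libraries, against 21.7, 29.3 and 22.6 CPM in Wild type libraries (log2 fold change -1.52 ± 0.28 SE, adjusted p = 0.00107).

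Markers of the sorted stage were present in both genotypes: 8 leptotene and zygotene genes summed to 22274 to 29643 CPM in SKO libraries and 13525 to 16848 CPM in Wild type libraries. Of the 8, 6 were called higher and 1, Spo11, lower; with the correction for GC content and length described below, 3 were higher and 2 lower. Pachytene and later markers (8 genes, 4 tested) summed to 29.5 to 32.7 CPM in SKO and 89.6 to 129 CPM in Wild type libraries, with 3 of the 4 called lower and 1, Tnp1, called higher (2.88 ± 0.740 CPM in SKO and 0.343 ± 0.304 CPM in Wild type libraries). Macrophage markers (6 genes) summed to 32.6 CPM in SKO replicate 3 and to at most 2.77 CPM in the other libraries; without that library 26 of the 31 higher calls and 10 of the 11 lower calls given below remained. Peritubular myoid markers summed to 4.61 to 13.9 CPM in SKO and 1.27 to 2.36 CPM in Wild type libraries with Des at 0, and Leydig markers to 4.94 to 9.87 CPM in SKO and 0.580 to 6.60 CPM in Wild type libraries with Cyp11a1 and Cyp17a1 at 0. Sertoli markers summed to 103 CPM in SKO replicate 3, 21.3 to 29.6 CPM in the other SKO libraries and 39.4 to 52.3 CPM in Wild type libraries. Erythroid markers, with Alas2 at 0, summed to 27.4, 119 and 56.6 CPM in SKO libraries, against 2.38, 3.42 and 105 CPM in Wild type libraries. Endothelial markers summed to 4.23 to 8.64 CPM in SKO and 9.67 to 12.9 CPM in Wild type libraries. Markers of undifferentiated spermatogonia summed to 13.1 to 19.3 CPM in SKO and 10.9 to 21.9 CPM in Wild type libraries, and those of differentiating spermatogonia to 165 to 204 CPM in SKO and 193 to 248 CPM in Wild type libraries. Apart from the values without SKO replicate 3, the part of these differences in the results below was not tested. In sorted bulk samples, a different make-up of cells and a different RNA level per cell cannot be told apart.

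Mitoribosomal protein transcripts were called higher in SKO spermatocytes more often than lower. The share called lower (14.3%) was near that over all tested genes. Of the 77 tested genes, 31 were called higher, where 14.1% of all tested genes were, and 11 were called lower, where 14.4% of all tested genes were. The other 35 did not pass. The median log2 fold change of the 77 genes was 0.16, against -0.03 over all tested genes, and single genes ranged from -1.36 to 1.04. In 38 genes every SKO library lay above every Wild type library, and in 16 every SKO library lay below; over all tested genes these shares were 21.6% and 22.2%. When libraries were scaled by their totals in place of TMM, the median of all tested genes moved to -0.29 and that of the 77 genes to -0.10. The split of calls then changed to 18 higher and 21 lower among the 77 genes, where 7.5% of all tested genes were higher and 23.5% lower. The genes stood above the median of all tested genes by 0.19 with TMM and by 0.20 with library totals. Levels were unlike the background: the median in Wild type was 12.1 CPM over all tested genes. For higher, not passed and lower genes of the 77 it was 204, 120 and 116 CPM. A filter of 5 CPM in 3 libraries left 8771 genes, 1923 of them higher and 1981 lower. Under that filter 21 of 48 Mrpl genes were higher and 10 lower, and 13 of 29 Mrps genes were higher and 3 lower.

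Both sets of symbols held genes in each direction, set against 14.1% higher and 14.4% lower over all tested genes. Of 48 tested Mrpl genes, 19 were higher (39.6%) and 9 lower (18.8%, near that background), while 20 did not pass. The Mrpl median log2 fold change was 0.18. Of 29 tested Mrps genes, 12 were higher (41.4%) and 2 lower (6.90%, below that background), while 15 did not pass. The lower 2 were Mrps31 and Mrps18a, and structures place Mrps18a in the large subunit. The Mrps median was 0.14, and 0.0061 without SKO replicate 1. With library totals the medians had the opposite sign, at -0.08 for Mrpl and -0.12 for Mrps. The difference between the subunits was not tested.

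**Figure D1:**
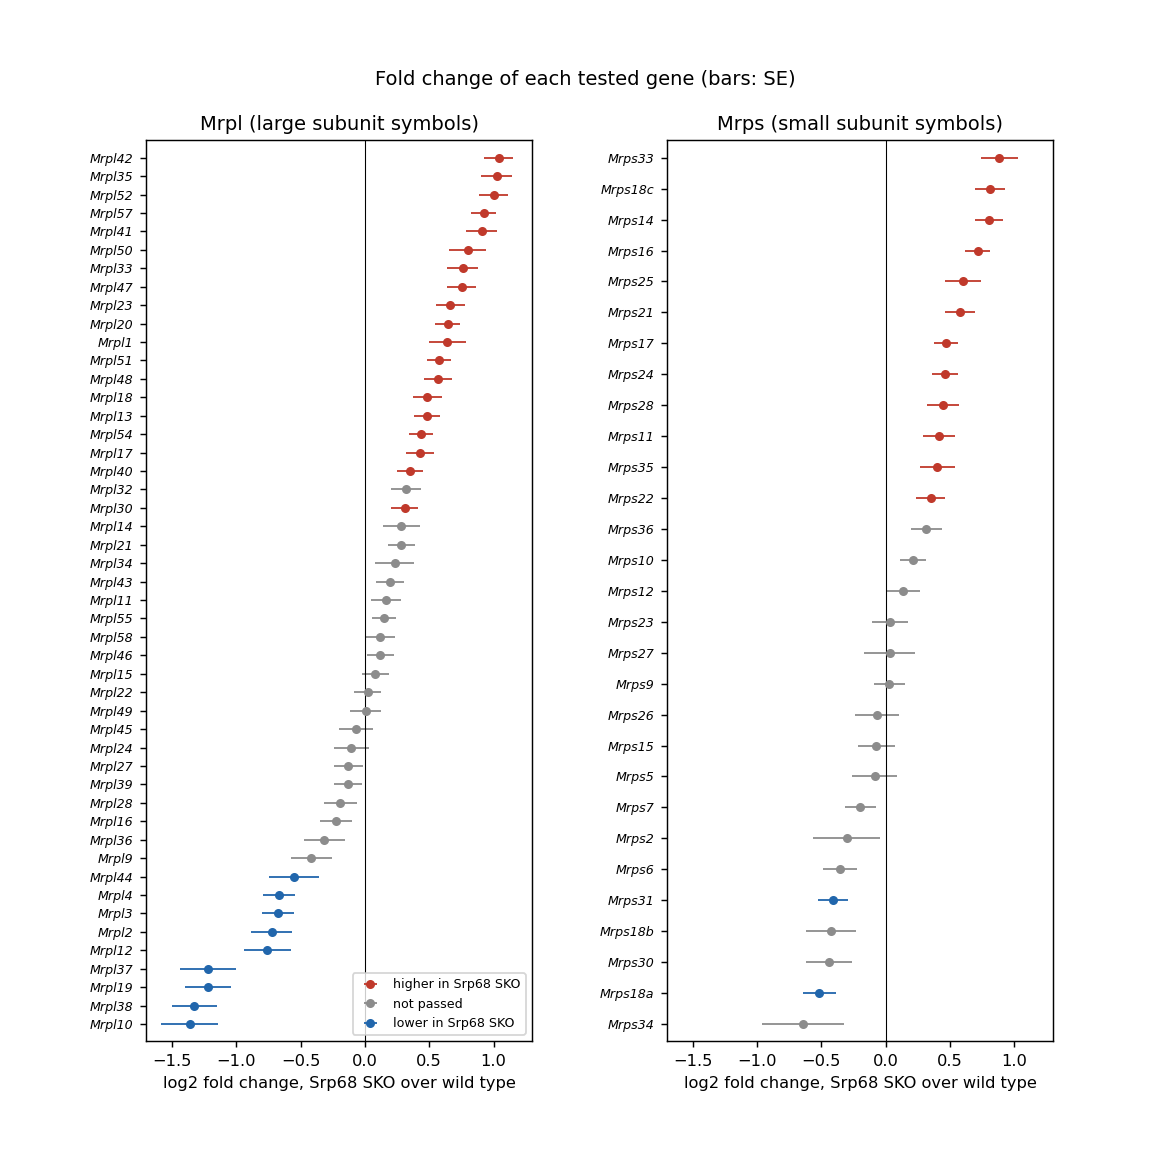
Log2 fold change (SKO over Wild type, horizontal axis) of each tested Mrpl gene (left) and Mrps gene (right), with bars of 1 SE from edgeR; red marks genes called higher, blue lower and grey not passed. The Mrpl genes run from -1.36 for Mrpl10 to 1.04 for Mrpl42, and the 4 lowest stand apart from the rest.

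Proximal promoters are shown for 4 of these genes. Promoters of mitochondrial protein genes often carry sites for NRF-1, for ETS factors such as GABP, and for YY1, nuclear regulators of respiratory genes. RefSeq promoter sequences on GRCm38.p6 were matched for 69 of the 78 genes, and the 250 bases before each annotated start were searched on both strands for GCGCANGCG (NRF-1), CCGGAAG (ETS), AANATGGCG (YY1) and TGATGNAA (an ATF4 composite element). Eligible for display were called genes with 1 promoter in the table and at most 30 exon bases in the window. Among these, for NRF-1 and for ETS separately, the gene with the largest change in each direction is shown; genes with larger changes that also hold the letters, such as Mrpl57, were not eligible. Capitals mark the match. Where it lies on the other strand, the capitals are its reverse complement. By the GENCODE annotation, the last 29 bases printed for Mrpl3 lie in its own exon, and they hold its ETS match. The same is true of the last 12 bases for Mrpl17, which hold its second NRF-1 match. The last 24 bases for Mrpl12 are also its own exon, but its match lies before them.
Mrpl17, higher (chr7:105811088-105811337, minus strand; NRF-1 and ETS): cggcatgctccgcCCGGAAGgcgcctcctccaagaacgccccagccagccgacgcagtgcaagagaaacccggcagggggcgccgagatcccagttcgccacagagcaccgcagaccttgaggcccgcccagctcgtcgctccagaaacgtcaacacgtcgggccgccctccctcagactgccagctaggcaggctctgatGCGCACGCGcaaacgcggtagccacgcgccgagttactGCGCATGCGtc
Mrpl52, higher (chr14:54426659-54426908, plus strand; ETS on the other strand): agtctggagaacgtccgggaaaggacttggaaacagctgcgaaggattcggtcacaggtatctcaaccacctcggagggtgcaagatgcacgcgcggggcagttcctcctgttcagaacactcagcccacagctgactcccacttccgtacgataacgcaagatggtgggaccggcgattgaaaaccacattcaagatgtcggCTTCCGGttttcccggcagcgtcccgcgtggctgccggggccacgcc
Mrpl12, lower (chr11:120484387-120484636, plus strand; NRF-1 on the other strand): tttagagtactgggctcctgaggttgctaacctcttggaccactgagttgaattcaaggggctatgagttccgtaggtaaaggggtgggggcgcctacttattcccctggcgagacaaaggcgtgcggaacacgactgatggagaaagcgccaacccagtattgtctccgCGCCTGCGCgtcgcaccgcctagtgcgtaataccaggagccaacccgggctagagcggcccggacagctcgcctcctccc
Mrpl3, lower (chr9:105053018-105053267, plus strand; ETS): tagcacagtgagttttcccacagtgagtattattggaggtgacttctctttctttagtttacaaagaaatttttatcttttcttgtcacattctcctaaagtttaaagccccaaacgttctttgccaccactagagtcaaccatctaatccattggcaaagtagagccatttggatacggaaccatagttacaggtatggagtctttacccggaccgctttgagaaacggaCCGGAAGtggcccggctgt

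The NRF-1 letters were in 13 of the 69 promoters (18.8%), against 13.8% of the 9620 tested genes in the promoter table. The ETS letters were in 18 (26.1%), against 17.0%. The YY1 letters were in 2 (2.90%, against 2.84%) and the ATF4 letters in 0 (against 2.25%). Neither direction of change was without them: NRF-1 letters were in 4 of 27 promoters of higher genes, 3 of 8 of lower genes and 6 of 33 of genes that did not pass. ETS letters were in 8 of 27, 2 of 8 and 7 of 33 in the same order. Mrpl17, from whose promoter the first sequence comes, averaged 229 ± 18.7 CPM in SKO and 170.0 ± 11.3 CPM in Wild type libraries (log2 fold change 0.43 ± 0.11). Mrpl3, with the last, averaged 110 ± 15.3 CPM in SKO and 175 ± 8.41 CPM in Wild type libraries (-0.67 ± 0.12). A match of letters describes the sequence and is not evidence of binding. Mrps11 and Mrpl46 on chromosome 7 share a promoter region, and other such pairs were not searched for. In RefSeq, Mrps11 (start 78783131, plus strand) and Mrpl46 (start 78783089, minus strand) are transcribed away from each other from starts 42 bases apart. Mrps11 had 192, 208 and 179 CPM in SKO libraries and 138, 127 and 168 CPM in Wild type libraries and was higher (log2 fold change 0.42 ± 0.13, adjusted p = 0.0224), a call lost when SKO replicate 2, Wild type replicate 1 or Wild type replicate 2 was left out. Mrpl46 had 230, 250 and 221 CPM in SKO libraries and 201, 215 and 229 CPM in Wild type libraries, which overlapped (log2 fold change 0.12 ± 0.10, adjusted p = 0.44). GENCODE places the starts differently, at 78783119 for Mrps11 and 78783531 for Mrpl46. By that annotation exons of the pair overlap over 7.97% of the length of Mrps11 and 12.2% of that of Mrpl46.

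The 5 largest increases in the large subunit were in genes with coding sequences of 102 to 188 codons. Mrpl42 (chr10:95480805-95501940), a protein with no bacterial homologue, had 730, 806 and 955 CPM in SKO libraries, against 424, 370 and 416 CPM in Wild type libraries. Every SKO library lay above every Wild type library, with a mean 2.06-fold higher (log2 fold change 1.04 ± 0.11, adjusted p = 1.87e-05). Mrpl35 (chr6:71812997-71826969), which has a bacterial homologue, had 587, 728 and 801 CPM in SKO libraries, against 363, 312 and 365 CPM in Wild type libraries (1.02 ± 0.12 on the log2 scale, adjusted p = 3.66e-05). Again the groups did not overlap, and SKO replicate 1 was the lowest of the SKO libraries for both genes. Mrpl52 (chr14:54426909-54429756), whose promoter is printed above, had 372, 431 and 410 CPM in SKO libraries, against 190, 187 and 229 CPM in Wild type libraries (1.00 ± 0.11, adjusted p = 2.46e-05). Mrpl57 (chr14:57826234-57829296) averaged 403 ± 22.96 CPM in SKO and 212 ± 4.79 CPM in Wild type libraries, with a log2 fold change of 0.93 ± 0.10. Mrpl41 (chr2:24974117-24975098) averaged 197 ± 25.1 CPM in SKO and 105 ± 5.50 CPM in Wild type libraries, at 0.91 ± 0.12. Mrpl52, Mrpl57 and Mrpl41 also lack bacterial homologues. All 5 genes were called higher in each of the 15 alternative analyses, library totals and GC correction included.

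The 3 Mrpl genes with the highest level per kb of exon in Wild type were Mrpl54, Mrpl20 and Mrpl55. Mrpl54, a protein near the stalk, had 541 CPM per kb in SKO and 400 CPM per kb in Wild type libraries. Its levels of 442, 425 and 473 CPM in SKO libraries all exceeded the 326, 327 and 338 CPM in Wild type libraries (log2 fold change 0.43 ± 0.09, adjusted p = 0.00335), a call not made with library totals. Mrpl20, whose bacterial counterpart acts early in assembly of the large subunit, had 791, 901 and 837 CPM in SKO libraries, against 512, 521 and 584 CPM in Wild type libraries (0.65 ± 0.10, adjusted p = 0.000224). Mrpl55 averaged 300.3 ± 6.54 CPM in SKO and 271 ± 1.65 CPM in Wild type libraries; the libraries did not overlap, but the test was not passed (0.15 ± 0.09, adjusted p = 0.272). The other 12 Mrpl genes called higher were Mrpl1, Mrpl13, Mrpl17, Mrpl18, Mrpl23, Mrpl30, Mrpl33, Mrpl40, Mrpl47, Mrpl48, Mrpl50 and Mrpl51, with log2 fold changes of 0.31 to 0.80. Of these, Mrpl17, Mrpl30 and Mrpl40 lost the call when some single libraries were left out, SKO replicate 2 among them for each gene. Mrpl13 (0.21), Mrpl17 (0.24) and Mrpl30 (0.24) lost it with the correction for GC content and length described below, and Mrpl13, Mrpl17, Mrpl18, Mrpl30 and Mrpl40 with library totals. Mrpl23 has a pseudogene row, Mrpl23-ps1, at 16.4 ± 1.10 CPM in SKO and 9.33 ± 0.727 CPM in Wild type libraries, against 152 ± 10.3 and 95.7 ± 3.38 CPM for Mrpl23 itself, and the counting could have split reads between them.

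The Mrpl genes that were lower included the stalk genes Mrpl10 and Mrpl12. The stalk of the large subunit recruits translation factors. Mrpl10 (chr11:97041560-97049213), which anchors the stalk, had 22.4, 12.4 and 16.2 CPM in SKO libraries, against 45.8, 40.7 and 44.7 CPM in Wild type libraries. All 3 SKO libraries lay below all 3 Wild type libraries (log2 fold change -1.36 ± 0.22, adjusted p = 0.000376). Mrpl12 (chr11:120484613-120489065), the mobile stalk protein that is also reported to bind mitochondrial RNA polymerase, had 37.4, 32.2 and 26.8 CPM in SKO libraries, against 53.1, 64.0 and 46.1 CPM in Wild type libraries (-0.76 ± 0.18, adjusted p = 0.00607). With the correction for GC content and length described below, the value for Mrpl12 was -0.39 and no longer passed (adjusted p = 0.08). Mrpl11, the other protein of the stalk base, had 199, 190 and 194 CPM in SKO libraries, against 159, 161 and 199.9 CPM in Wild type libraries, where Wild type replicate 3 lay above every SKO library (0.16 ± 0.12, adjusted p = 0.329). Of the 4 tested stalk genes, 1 was higher, 2 were lower and 1 did not pass. Over all tested genes 14.1% were higher and 14.4% lower. After the correction 1 stalk gene was higher and 1 lower, where 10.6% and 12.7% of all tested genes were.

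The other large decreases were in Mrpl38, Mrpl37 and Mrpl19. Mrpl38 (chr11:116131817-116138868), a protein of the central protuberance without a bacterial homologue, had 65.3, 53.2 and 43.9 CPM in SKO libraries, against 134, 165 and 109 CPM in Wild type libraries. The groups were well apart (log2 fold change -1.33 ± 0.18, adjusted p = 8.34e-05), though the value with that correction was -0.57 (adjusted p = 0.00299). Mrpl37 (chr4:107055874-107066868) had 67.0, 43.9 and 38.4 CPM in SKO libraries, against 129, 137 and 81.7 CPM in Wild type libraries (-1.22 ± 0.22, adjusted p = 0.000867). Mrpl19 (chr6:81957851-81965958) had 19.5, 19.3 and 16.1 CPM in SKO libraries, against 45.2, 40.9 and 41.7 CPM in Wild type libraries (-1.22 ± 0.18, adjusted p = 0.000202), with 36.0% of its exon length shared with Gcfc2. For both genes no SKO library reached the Wild type range. The remaining lower Mrpl genes were Mrpl2 (-0.73), Mrpl3 (-0.67), Mrpl4 (-0.67) and Mrpl44 (-0.55), the last an RNase III-like protein whose call (adjusted p = 0.0457) was lost without SKO replicate 1, SKO replicate 3, Wild type replicate 1 or Wild type replicate 2. With the correction Mrpl4 stood at -0.08.

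Other structural groups of the large subunit were mixed, set against 14.1% higher and 14.4% lower over all tested genes. Of 30 tested genes with bacterial homologues, 10 were higher, 6 lower and 14 not passed (median 0.16). Of 18 without, 9 were higher, 3 lower and 6 not passed (median 0.27). With the correction for GC content and length described below, the medians with and without homologues were 0.11 and 0.40. In the central protuberance, which contacts the small subunit, 3 of 8 were higher and 1 was lower, which is near the share lower over all tested genes. Around the polypeptide exit site, where the nascent chain leaves towards the inner membrane, 3 of 6 were higher (Mrpl17, Mrpl23 and Mrpl47) and 0 were lower (0 at an unadjusted p under 0.05, 0 in DESeq2 and 0 in limma-voom). Mrpl45, which anchors the ribosome to the membrane, averaged 117 ± 16.8 CPM in SKO and 122 ± 9.53 CPM in Wild type libraries. The 2 Mrpl genes nearest 0 were Mrpl49 (log2 fold change 0.01 ± 0.12) and Mrpl22 (0.02 ± 0.10).

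**Figure D2:**
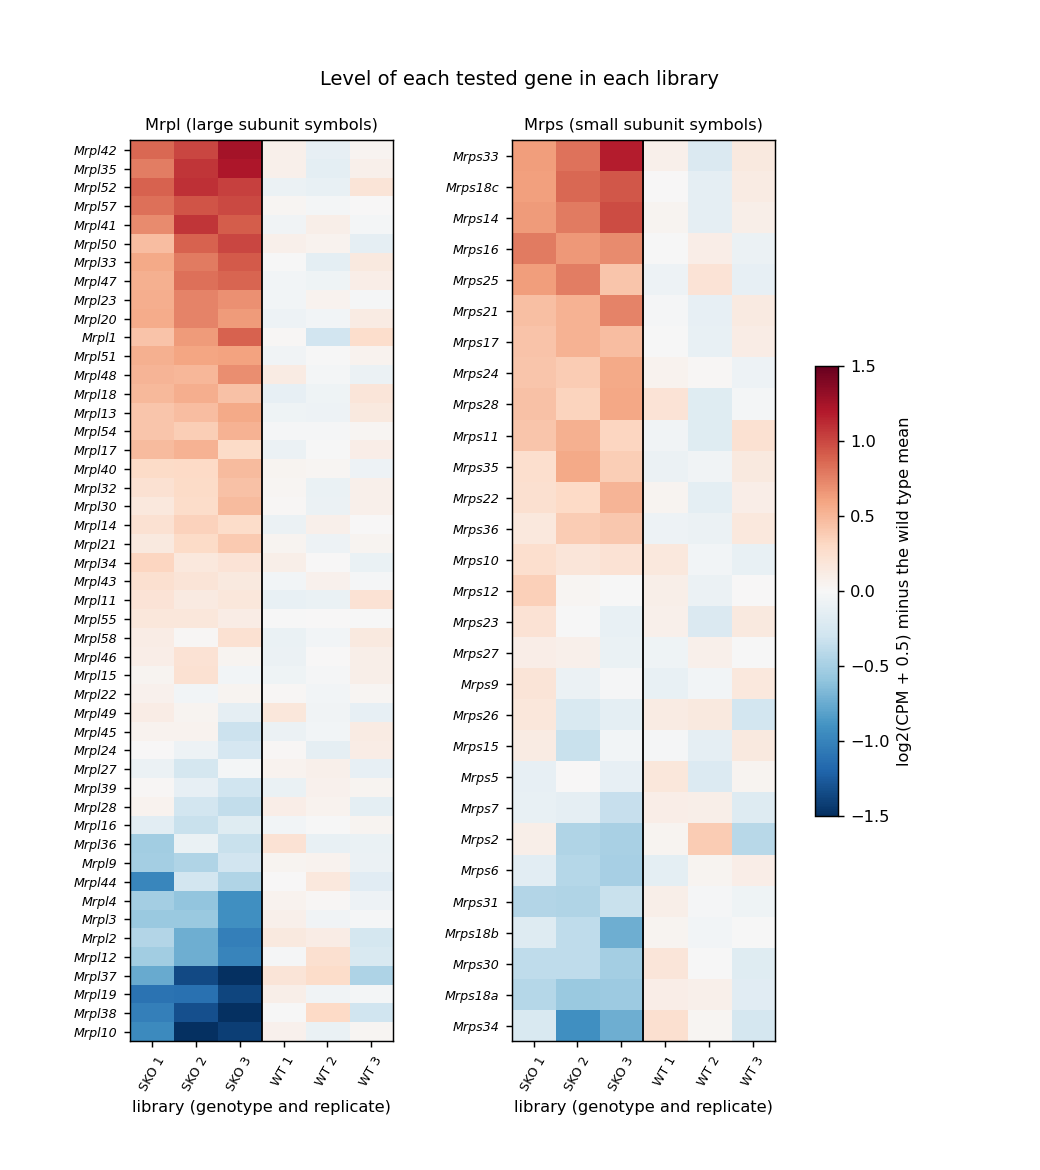
Level of each tested gene in each library as log2(CPM + 0.5) minus the Wild type mean, with SKO libraries left of the black line and Wild type libraries right of it; genes are ordered by fold change within Mrpl and Mrps. The upper genes are red in all 3 SKO libraries and the lowest are blue in all 3, with the deepest colours mostly in SKO replicates 2 and 3.

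In the small subunit the 5 largest increases were in genes with coding sequences of 106 to 171 codons. Mrps33 (chr6:39801804-39810988), which has no bacterial homologue, had 312, 357 and 458 CPM in SKO libraries, against 213, 174 and 225 CPM in Wild type libraries (log2 fold change 0.88 ± 0.14, adjusted p = 0.000379). Mrps14 (chr1:160195215-160202170), with a bacterial homologue in the head of the subunit, had 812, 897 and 1030 CPM in SKO libraries, against 538, 477 and 554 CPM in Wild type libraries (0.80 ± 0.11, adjusted p = 9.2e-05). Neither gene's groups overlapped. Mrps16 (chr14:20389304-20393634) had 380, 348 and 360 CPM in SKO libraries, against 219, 236 and 208 CPM in Wild type libraries (0.71 ± 0.10, adjusted p = 0.000127). Mrps25 (chr6:92169525-92184033) averaged 113 ± 13.7 CPM in SKO and 74.2 ± 9.39 CPM in Wild type libraries (0.60 ± 0.14, adjusted p = 0.00518). It shares 69.8% of its exon length with Nr2c2, and its call was not made with library totals (0.34).

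By level per kb in Wild type, Mrps21, Mrps28 and Mrps18c led, at 312, 246 and 314 CPM per kb in SKO and 209, 180 and 179 CPM per kb in Wild type libraries. All 3 were called higher. Mrps21 averaged 231 ± 24.4 CPM in SKO and 155 ± 13.96 CPM in Wild type libraries, and Mrps28 averaged 192 ± 16.2 and 141 ± 19.7 CPM in the same order. The call for Mrps21 (log2 fold change 0.58) was lost with the correction for GC content and length described below (0.33). The call for Mrps28 (log2 fold change 0.45, adjusted p = 0.0153) was lost with the correction (0.28, adjusted p = 0.111) and when SKO replicate 3 or Wild type replicate 2 was left out. Mrps11, Mrps17, Mrps22, Mrps24 and Mrps35 were also higher, with log2 fold changes of 0.35 to 0.47. With library totals these 5 calls and that of Mrps28 were lost. Mrps22 and Mrps35 also lost the call without SKO replicate 2, SKO replicate 3, Wild type replicate 1 or Wild type replicate 2, and Mrps35 with the correction (0.22).

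Groups of the small subunit are set against the same 14.1% higher and 14.4% lower over all tested genes. Small-subunit genes with bacterial homologues gave 8 higher and 0 lower of 16 tested (median 0.31), with 1 lower at an unadjusted p under 0.05, 1 in DESeq2 and 0 in limma-voom. Those without homologues gave 4 higher and 1 lower of 10 (median 0.03), the lower share being near that over all tested genes. With the correction for GC content and length, the medians with and without homologues were 0.32 and 0.20. At the decoding site and along the mRNA path, 2 of 5 were higher, Mrps11 and Mrps24. Mrps12, the decoding-site protein, had 130, 103 and 100.1 CPM in SKO libraries, overlapping the 107, 94.7 and 101 CPM in Wild type libraries (log2 fold change 0.14 ± 0.13, adjusted p = 0.486). The 2 Mrps genes nearest 0 were Mrps9 and Mrps27, both at 0.03. The 1 lower gene of the group without homologues was Mrps31, with 88.9, 88.8 and 95.9 CPM in SKO libraries, against 128, 120 and 116 CPM in Wild type libraries (-0.41 ± 0.12, adjusted p = 0.0168). Its groups did not overlap, but the call was lost without SKO replicate 2 or without Wild type replicate 1.

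The 3 Mrps18 paralogs, homologues of the same bacterial protein, had unlike values. Mrps18b was nevertheless listed above among the small-subunit genes without bacterial homologues, and the groups were not recounted with it moved. Mrps18c (chr5:100798627-100804471), a small-subunit protein, had 295, 350 and 368 CPM in SKO libraries, against 193, 176 and 210 CPM in Wild type libraries (log2 fold change 0.81 ± 0.11, adjusted p = 0.000148; 23.2% exon overlap with Gm43511). Mrps18a (chr17:46110986-46128910), which structures place in the large subunit, had 81.9, 75.0 and 75.3 CPM in SKO libraries, against 118, 116 and 98.0 CPM in Wild type libraries (-0.52 ± 0.13, adjusted p = 0.00716). Mrps18c was thus called higher and Mrps18a lower, each without overlap between the groups, but the corrected value of Mrps18a was 0.02 (adjusted p = 0.92). Mrps18b, a second small-subunit paralog, had 29.7, 26.2 and 20.4 CPM in SKO libraries, against 35.3, 33.1 and 34.1 CPM in Wild type libraries (-0.43 ± 0.19, adjusted p = 0.113). Its corrected value was -0.11 (adjusted p = 0.715), and 30.5% of its exon length overlaps Gm16279. The difference between the paralogs was not tested.

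Some symbols do not match the subunit. Mrps30, found in the large subunit, had 26.3, 26.4 and 24.1 CPM in SKO libraries, against 39.2, 34.5 and 30.5 CPM in Wild type libraries (-0.44 ± 0.18, adjusted p = 0.0853), and passed with the correction (-0.73, adjusted p = 0.00969). Mrps36, now known as a component of the 2-oxoglutarate dehydrogenase complex, averaged 173 ± 15.4 CPM in SKO and 139 ± 14.2 CPM in Wild type libraries (0.31 ± 0.12, adjusted p = 0.0627). Conversely, 5 mitoribosomal proteins carry other symbols. Chchd1, of the small subunit, had 512, 667 and 730 CPM in SKO libraries, against 251, 232 and 292 CPM in Wild type libraries (1.3 ± 0.13, adjusted p = 1.26e-05). Its increase was larger than that of any Mrpl or Mrps gene, and the groups did not overlap. Gadd45gip1, of the large subunit, was lower without overlap between groups, at 6.97 ± 2.12 CPM in SKO and 16.5 ± 2.24 CPM in Wild type libraries (-1.24 ± 0.30, adjusted p = 0.006; 42.0% exon overlap), and did not pass with the correction (-0.71, adjusted p = 0.0807). Dap3 (-0.29), Ptcd3 (0.04) and Aurkaip1 (0.20), all of the small subunit, did not pass, though Aurkaip1 passed with the correction (0.68, adjusted p = 0.000257). With genes assigned by structure, 19 of 51 large-subunit genes were higher and 11 lower, and 13 of 30 small-subunit genes were higher and 1 lower. Over all tested genes 14.1% were higher and 14.4% lower. After the correction the counts were 20 and 8 in the large subunit and 12 and 1 in the small subunit. The shares over all tested genes were then 10.6% and 12.7%.

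As a share of all counts, which scales each library by its total, both sets were higher in SKO. The Mrpl genes together took 1.04%, 1.05% and 1.04% of counts in SKO libraries, against 0.963%, 0.974% and 0.968% in Wild type libraries. The Mrps genes took 0.523%, 0.503% and 0.517% in SKO libraries, against 0.477%, 0.459% and 0.469% in Wild type libraries. Neither set overlapped between genotypes, and the differences of 0.0726 and 0.0461 percentage points were several times the SD of each genotype (0.00455 in SKO and 0.00511 in Wild type for Mrpl, 0.0101 in SKO and 0.00930 in Wild type for Mrps). The size of the differences depended on the denominator: on TMM-effective library sizes they were 0.257 for Mrpl and 0.136 for Mrps, and without mitochondrially encoded and cytosolic ribosomal protein genes 0.123 and 0.0722. Abundant genes weigh most in such a sum. The median Wild type level was 204 CPM for higher genes, 116 CPM for lower genes and 120 CPM for genes that did not pass. The part of level in the summed shares was not tested.

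**Figure D3:**
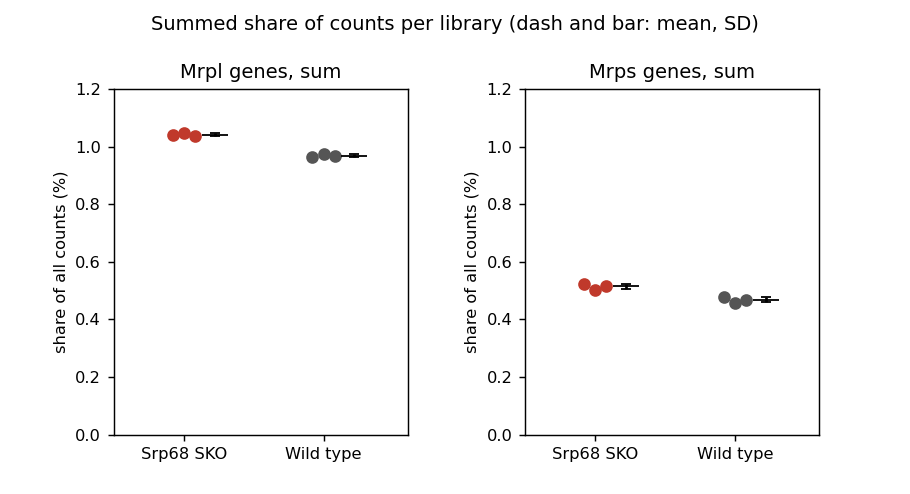
Summed counts of the Mrpl genes (left) and of the Mrps genes (right) as a percentage of all counts in each library (vertical axis, from 0), with a dash for the mean and a bar for the SD of 3 libraries per genotype. In both panels the 3 SKO points lie above the 3 Wild type points, by 0.0726 and 0.0461 percentage points on average.

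The direction of change was related to coding length. Genes called higher had a median coding length of 160 codons, genes called lower 306 codons and genes that did not pass 216 codons. Across the 77 genes the log2 fold change was related to coding length with Spearman's rho of -0.60 and Pearson's r of -0.58, on log2 codons; rho was -0.61 over the 48 Mrpl genes and -0.61 over the 29 Mrps genes. These genes come from the same 6 libraries and are not independent replicates. Over 5373 tested genes within the same range of 87 to 442 codons, rho was -0.23, and over all 11386 tested genes with a coding sequence it was -0.01. In bins chosen after the values were seen, 14 of 22 genes of at most 150 codons were higher and 0 were lower (1, Mrps6, at an unadjusted p under 0.05 and in DESeq2, and 0 in limma-voom), while tested genes of this size within the range were higher in 38.5% and lower in 10.5%. Of 28 genes with 151 to 250 codons, 13 were higher and 2 lower (20.4% and 17.7% of tested genes). Of 27 genes with more than 250 codons, 4 were higher and 9 lower (9.03% and 24.5%). Total exon length, UTRs included, showed no such relation (rho 0.03).

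**Figure D4:**
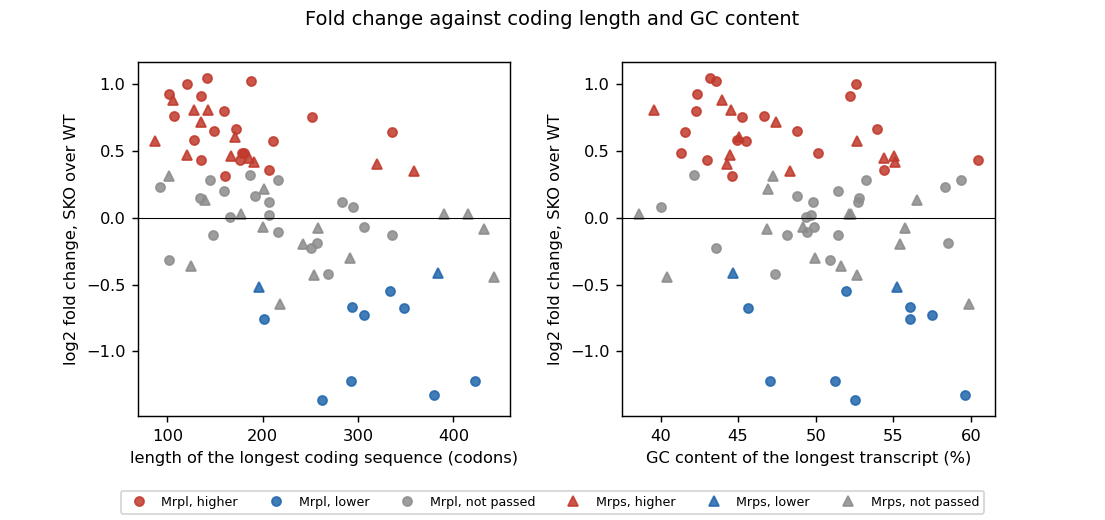
Log2 fold change (SKO over Wild type, vertical axis) of each tested gene against the codons of its longest coding sequence (left) and the GC content of its longest transcript in percent (right); circles are Mrpl genes, triangles Mrps genes, and colours give the call. Long coding sequences and GC-rich transcripts lie lower, with rho of -0.60 and -0.37.

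Base composition moved with the result as well. The fold change was related to transcript GC content with rho of -0.37 over the 77 genes and -0.34 over the 13452 tested genes whose GC content is known. A correction that took out, library by library, the trend of level on GC content and exon length brought this to -0.06 for the 77 genes and left the relation to coding length at -0.50. After it, 30 of the 77 genes were higher, where 10.6% of all tested genes were, and 9 were lower, where 12.7% were. Of the 31 genes called higher without the correction 25 kept the call, and of the 11 called lower 7 did; Mrpl4, Mrpl12, Mrpl44 and Mrps18a did not. Mrpl and Mrps medians were both 0.23. The fold change was also related to the Wild type level (rho 0.52, against -0.05 over all tested genes). The part of level or base composition in these values beyond this correction was not tested.

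**Figure D5:**
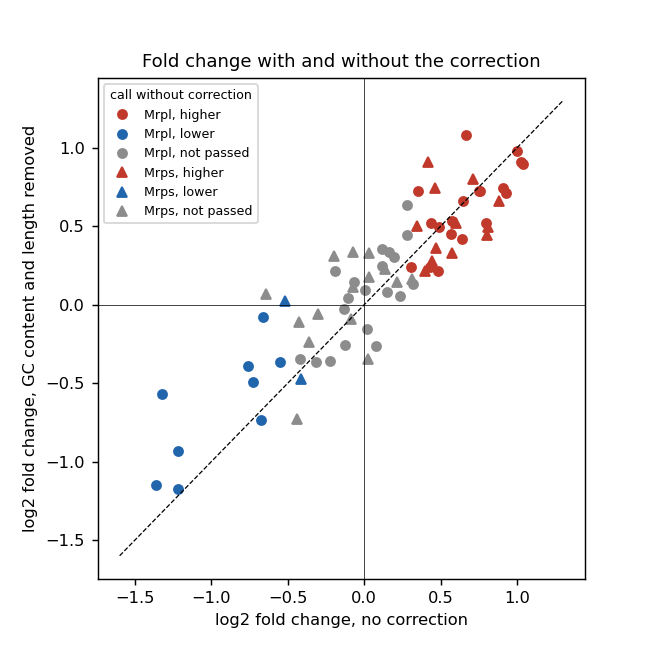
Log2 fold change of each tested gene after the correction for GC content and exon length (vertical axis) against that without the correction (horizontal axis); the dashed line marks equal values and colours give the call without correction. Most genes stay in their quadrant, while Mrps18a moves from -0.52 to 0.02.

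Genes that act with the mitoribosome were examined in the same way, against the same background of 14.1% higher and 14.4% lower. Of 14 tested mitochondrial translation factors, 7 were lower and 0 higher (median log2 fold change -0.72); DESeq2 and limma-voom also called 0 higher, and 1 was higher at an unadjusted p under 0.05. Mtfmt, which formylates the initiator methionyl-tRNA, had 30.9, 24.3 and 18.1 CPM in SKO libraries, against 60.3, 59.5 and 45.1 CPM in Wild type libraries (-1.17 ± 0.21, adjusted p = 0.000797). The elongation factor Gfm1 averaged 12.5 ± 1.94 CPM in SKO and 22.97 ± 2.78 CPM in Wild type libraries (-0.88), and the release factor Mtrf1 averaged 4.86 ± 0.875 CPM in SKO and 11.5 ± 3.45 CPM in Wild type libraries (-1.24). All 3 were lower, with no overlap between groups, though Mtrf1 did not pass when Wild type replicate 1 was left out. With the correction 4 of the 14 were lower (median -0.48).

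Of 29 assembly and rRNA-modification factors, 8 were lower (27.6%, against 14.4% of all tested genes) and 1 higher (median -0.56). With the correction 7 were lower and 2 higher (median -0.34), where 12.7% and 10.6% of all tested genes were. Rbfa, which matures the small-subunit rRNA, averaged 12.8 ± 4.02 CPM in SKO and 34.2 ± 3.49 CPM in Wild type libraries (-1.42 ± 0.25, adjusted p = 0.000677; 43.9% exon overlap). Mterf4, which brings an rRNA methyltransferase to the large subunit, averaged 15 ± 1.82 CPM in SKO and 30.4 ± 2.64 CPM in Wild type libraries (-1.02; 35.2% exon overlap). Malsu1, which keeps the subunits apart during assembly, was the 1 higher gene without the correction, with 318 ± 11.4 CPM in SKO and 212 ± 5.38 CPM in Wild type libraries (0.59 ± 0.10, adjusted p = 0.000449; 40.5% exon overlap). Of 19 genes for mitochondrial DNA upkeep and transcript handling, 4 were higher (21.1%) and 3 lower (15.8%), near the 14.1% and 14.4% over all tested genes (median -0.29). Ssbp1, the single-stranded DNA-binding protein, averaged 610.4 ± 48.0 CPM in SKO and 357 ± 35.3 CPM in Wild type libraries (0.77 ± 0.11, adjusted p = 0.000113). Slirp, which stabilizes mitochondrial mRNA with Lrpprc, stood at 0.84 with 97.8% of its exon length shared with other genes, and the RNA granule protein Grsf1 at -0.51, a call lost with the correction and without SKO replicate 3 or Wild type replicate 2.

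Of the 10 listed regulators of mitochondrial genes 5 were tested, and 1 was higher and 1 lower. With so few genes, these counts are near the 14.1% higher and 14.4% lower over all tested genes. Yy1 was higher, at 106 ± 12.8 CPM in SKO and 76.4 ± 5.69 CPM in Wild type libraries (log2 fold change 0.47, adjusted p = 0.017), and Gabpb1, a GABP subunit, was lower, at 70.8 ± 9.51 CPM in SKO and 91.9 ± 2.38 CPM in Wild type libraries (-0.38, adjusted p = 0.0486). Both calls were lost when any of several single libraries was left out. Among 10 chaperones and proteases 1 was higher and 2 were lower, also near the shares over all tested genes. The matrix co-chaperonin Hspe1 averaged 913 ± 31.2 CPM in SKO and 542 ± 7.79 CPM in Wild type libraries (0.75 ± 0.09, adjusted p = 3.39e-05), and the chaperone Trap1 averaged 32.3 ± 5.25 CPM in SKO and 78.4 ± 5.96 CPM in Wild type libraries (-1.28 ± 0.16, adjusted p = 5.86e-05). The protease Htra2 stood at -0.75, and at 0.01 with the correction, and its call was lost when any of 5 single libraries was left out.

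The 13 mitochondrially encoded proteins, which the mitoribosome makes, gave 0 calls in edgeR's quasi-likelihood test (median log2 fold change 0.09; 1 at an unadjusted p under 0.05, 1 in DESeq2 and 1 in limma-voom). With the correction for GC content and length 10 of the 13 were lower (median -0.71), so their direction depended on it.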

How the data were processed

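The deposited table holds whole-number counts of reads per gene for 6 libraries, with no normalization by the authors as far as the values show. The submitters' processing notes name FastQC, Trim Galore 0.6.4, HISAT2 2.0.5 and the builds GRCm38 and mm10. The sources used here do not name a tool, strand setting or annotation for counting. Reads of overlapping genes therefore cannot be told apart: 33 of the 78 genes share exon bases with another gene, 10 of them over more than 20% of their exon length, and 28 with a gene on the opposite strand. Columns were assigned by genotype and replicate number, CKO being the only knockout group. Without molecular identifiers, PCR copies count as reads, and floors cover counting error only.

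GENCODE vM21 on GRCm38 supplied symbols, positions and lengths for 49325 of the 49584 rows. In R 4.3.3, edgeR 4.0.16 kept 13474 genes (filterByExpr), scaled libraries by TMM and ran the two-sided quasi-likelihood test on genotype, adjusting p over the tested genes by Benjamini-Hochberg with a threshold of 0.05; the biological coefficient of variation was 0.304. The code was tested on simulated data. Alternatives were DESeq2 size factors, library totals, no filter, 5 CPM in 3 libraries, DESeq2 1.42.0, limma-voom (limma 3.58.1), a replicate block, offsets from a loess trend (span 0.3) on GC content and log exon length, and each library left out. Replicates differed by more than sampling noise in a chi-square test and were all kept.

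The genes and lists were chosen with earlier results of these data known. Named genes were, per subunit, up to 5 called genes with the largest change each way and at least 5 CPM, the 3 highest per kb in Wild type and the 2 nearest 0, genes named by role, up to 3 called genes per other list by smallest p, and Srp68. Other members named here, such as Mrpl45, Mrpl46 and Mrpl4, were chosen after their values were seen.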

Additional observations from a re-analysis of the deposited data

How the results depend on the processing

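The 31 higher calls were all kept with DESeq2 size factors, no filter, a 5 CPM filter, DESeq2, limma-voom and the replicate block; 18 were kept with library totals and 25 with the GC and length correction, and 17 in all 15 alternatives. Of the 11 lower calls 6 were kept in all 15. Library totals moved the median of all tested genes from -0.03 to -0.29 and gave 1010 higher and 3168 lower calls over all genes, against 1901 and 1937 with TMM. With library totals 15 Mrpl genes were lower (9 with TMM), 5 Mrps genes higher (12) and 6 lower (2), and the median log2 fold changes were -0.080 (Mrpl) and -0.12 (Mrps), against 0.18 and 0.14. The cause was not tested. The Mrpl median was 0.23 with the GC and length correction and 0.15 with subunits assigned by structure, where 1 Mrps gene was lower. Mrps18a stood at 0.0221 with the correction and at 0.0218 with the correction and replicate block, Htra2 at 0.0141 and 0.0166, and Mrps7 at 0.31 with the correction (-0.20 without). The Mrpl share difference was 0.257 percentage points on TMM-effective library sizes and 0.123 without mitochondrially encoded and cytosolic ribosomal protein genes; for Mrps these were 0.136 and 0.0722. Leaving out 1 library in turn gave 16 to 20 higher and 8 to 9 lower Mrpl genes, 8 to 13 higher and 1 to 3 lower Mrps genes, medians of 0.16 to 0.19 (Mrpl) and 0.0061 to 0.20 (Mrps), share differences of 0.0700 to 0.0751 (Mrpl) and 0.0413 to 0.0516 (Mrps), and 2734 to 3767 calls over all genes, against 3838. Same-numbered libraries did not deviate together (correlations -0.0463 to 0.0519), so the numbers were not taken to pair them. With the replicate block, Mrpl gave 20 higher and 9 lower (median 0.18), Mrps 13 higher and 2 lower (median 0.13), and all genes 3967 calls; with the block and correction together the medians were 0.23 and 0.23.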
